A study of Homo sapiens with 5 samples.

Results

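The cytosolic ribosomal protein genes code for the proteins of the small and large ribosomal subunits. They were taken from the deposited table by symbol (RPS and RPL with a number, RPSA, RPLP0, RPLP1 and RPLP2) and kept where the mean over the 5 libraries was 1 FPKM or more. FPKM counts sequenced fragments per kilobase of transcript, relative to all mapped fragments, and so corrects a level for gene length and library size. Of 84 matching symbols among 27933 rows, 80 reached that level and 4 did not, and this rule used no difference between groups. The gene family, and the gene lists set beside it below, were chosen with earlier results of these data known. The 80 genes comprised 31 small subunit proteins, 45 large subunit proteins and 4 paralogs of large subunit proteins (RPL22L1, RPL39L, RPL36AL and RPL7L1). FAU and RACK1 also encode ribosomal components but carry other symbols, and their values are given apart.

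Total RNA was sequenced from HaCaT cells, an immortalised human keratinocyte line grown in serum-containing medium. The labels name 3 libraries as AHNAK knockdown (described as si) and 2 as control (NC), while the text on the series' design calls the cells a knockout. AHNAK encodes a very large scaffold protein, and the title of the series links it to oncostatin M signalling and to keratinocyte proliferation and differentiation. The interfering RNA sequences, the time after transfection and whether replicates were separate cultures are not stated. The p-values below therefore reflect the spread among these libraries alone, and that spread may be technical.

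Each ribosome carries a single copy of nearly every one of these proteins, and the acidic stalk proteins RPLP1 and RPLP2 are the known exception. The proteins are made in the cytoplasm, imported into the nucleus and built onto ribosomal RNA, and surplus protein is degraded. Most of their mRNAs begin with a 5′ terminal oligopyrimidine tract (TOP), a cytosine followed by a run of pyrimidines, through which mTORC1 and LARP1 are known to regulate their translation and stability. Dividing keratinocytes of the basal layer need continued ribosome production.

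The start of these transcripts is shown because the TOP tract is what most members share outside the coding sequence. RefSeq promoter windows (GRCh38.p14) were matched to 64 members, and the windows below run from 15 bases upstream to 15 bases downstream of the annotated start, 5′ to 3′. Capitals mark the pyrimidine run that begins with C at the start base, up to the end of the window. The first 6 genes had such a run at the start shown and the last 2 did not. RPL11 has another annotated start, not shown, without such a run.
RPL11 (chr1:23691791-23691820, plus strand): cggaagctccgctttCTCTTCCTgctctcc
RPL28 (chr19:55385917-55385946, plus strand): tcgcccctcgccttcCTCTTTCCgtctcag
RPLP0 (chr12:120201097-120201126, minus strand): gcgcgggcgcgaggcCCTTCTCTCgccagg
RPL39 (chrX:119791616-119791645, minus strand): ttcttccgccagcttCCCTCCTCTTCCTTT
RPL26 (chr17:8383179-8383208, minus strand): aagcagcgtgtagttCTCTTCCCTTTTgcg
RPL22L1 (chr3:170870181-170870210, minus strand): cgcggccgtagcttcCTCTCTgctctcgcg
RPS26 (chr12:56041903-56041932, plus strand): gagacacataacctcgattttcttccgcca
RPL7L1 (chr6:42879601-42879630, plus strand): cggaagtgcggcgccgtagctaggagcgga

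A TOP start was defined as C at the start base followed by at least 4 pyrimidines. A gene was counted if any of its annotated starts was of this kind, and 46 of the 64 members (71.88%) had one. The same start was found in 685 of 9060 tested genes with a window (7.56%) and in 1404 of 27305 genes overall (5.14%). The RPS26 window holds a pyrimidine-rich stretch a few bases downstream of its annotated start, which this definition does not count. Other motifs were sought on both strands of the window from 250 bases upstream to 50 downstream. CCGGAA, the core bound by ETS-family factors, was in 36 members (56.25%), against 35.87% of tested genes. AAGATGG, a core of the YY1 motif, was in 8 members (12.5%), against 9.81% of tested genes, and TATAAA was in 6 (9.38%), against 7.96%.

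AHNAK was at 114, 69.6 and 115 FPKM in knockdown replicates 1 to 3, against 205 and 242 FPKM in control replicates 1 and 2. The log2 difference was -1.19 ± 0.24 (SE) on the log2(FPKM + 0.5) scale, with a limma adjusted p of 0.372 over the 12196 genes tested. All 8 keratinocyte markers were above 1 FPKM in every library, and their summed level was 4077 to 5523 FPKM in knockdown and 5725 to 7058 FPKM in control libraries, so the groups did not overlap. Of the markers of other cell types, the 5 fibroblast markers summed to 3.99 to 4.99 FPKM in knockdown and 3.30 to 3.65 FPKM in control libraries, while the 4 immune markers summed to 0.172 to 0.323 FPKM in knockdown and 0.0906 to 0.0990 FPKM in control libraries. The 3 melanocyte markers summed to 1.374 to 2.036 FPKM in knockdown and 1.886 to 2.035 FPKM in control libraries, and 1 of them, TYR, was at 0 in all 5. The 3 endothelial markers summed to 2.06 to 2.98 FPKM in knockdown and 2.08 to 2.97 FPKM in control libraries. In these last 2 cell types the groups overlapped. The part of these marker levels in the results was not tested.

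The libraries fell into 2 sets by the steps of their lowest values. Between libraries counted in whole reads, the ratio of low values repeats across genes. The most frequent ratio was shared by 20.1% to 25.1% of low genes among knockdown replicate 1, knockdown replicate 3 and control replicate 1 (set A). It was shared by 17.0% between knockdown replicate 2 and control replicate 2 (set B), and by at most 3.96% in any pair across the sets. No label describes the sets, and differences were therefore also computed within each. Knockdown replicate 3 and control replicate 1 stood apart from the rest in the ribosomal protein genes. The count and median over all members are also given without knockdown replicate 3. The same holds for the differences of the named members that moved most without it.

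Ribosomal protein mRNAs were among the most abundant in HaCaT cells. The median member was at 588 FPKM over the 5 libraries (quartiles 265 and 951), against 10.8 FPKM for all genes tested, and 47 of the 100 highest genes were members. At least 100 FPKM was reached by 70 members and at least 1000 FPKM by 15, while 6 stayed under 25 FPKM. The highest were RPL7A, a large subunit protein, at a mean of 2119 FPKM, RPS2, of the small subunit's mRNA entry region, at 2071 FPKM, RPL35, at the exit tunnel, at 1722 FPKM and RPL8, near the peptidyl transferase centre, at 1718 FPKM. The means of RPL35 and RPL8 differed by less than the spread between libraries of either. The order of levels was nearly the same in each library, with Spearman's rho between 0.968 and 0.996 over 80 genes for the 10 pairs of libraries, which share the gene models and the length scaling.

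**Figure D1:**
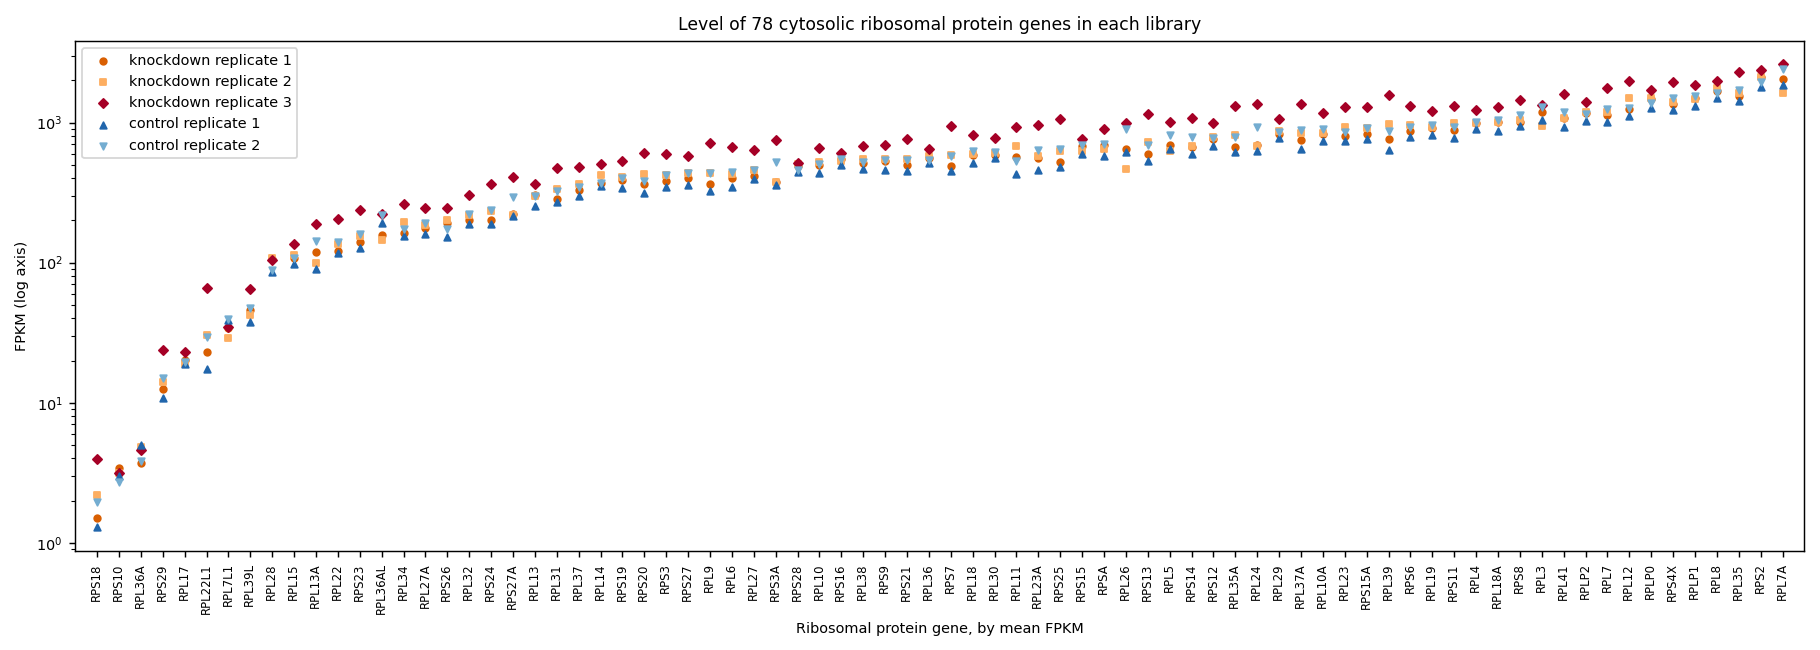
FPKM of 78 ribosomal protein genes (log axis), ordered by mean level, with 1 point per library. The points of knockdown replicate 3 lie above those of the other libraries in 74 genes, and 5 genes lie under 25 FPKM.

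The low end of this order holds proteins that every ribosome needs. RPS18, of the head of the small subunit, was at 1.49, 2.19 and 3.997 FPKM in knockdown and 1.29 and 1.96 FPKM in control libraries. RPS10, which lies by the mRNA entry side of the head, was at 3.44, 3.16 and 3.17 FPKM in knockdown and 2.98 and 2.70 FPKM in control libraries. RPL36A, RPS29 and RPL17 averaged 4.39, 15.3 and 20.2 FPKM. The highest value of RPS18, RPS10 and RPL36A in any library was 4.99 FPKM, of RPL36A in control replicate 1. Well under the limit of 1 FPKM was RPL3L, the paralog of RPL3 known from muscle, at a mean of 0.255 FPKM. RPL21, an essential large subunit protein, was lower still, at 0.0661, 0 and 0.0759 FPKM in knockdown and 0.1497 and 0.261 FPKM in control libraries. RPL10L, known from the testis, was listed at 0 in every library.

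Many members have near-identical copies in the genome. GENCODE names 1079 pseudogenes after 76 of the 80 members, with a median of 9 per member and 91 for RPL23A and 74 for RPSA, and RPL21 has 66. The table itself listed 31 ribosomal protein pseudogenes, of which 12 averaged at least 1 FPKM, the highest being RPSAP58 at 7.28 FPKM. Spearman's rho between mean level and number of named pseudogenes was 0.01 over the 80 members, and RPL23A and RPSA averaged 639 and 702 FPKM. Readthrough rows were also listed for RPS10, RPL36A and RPL17, at means of 0, 0 and 0.0078 FPKM. How the authors' counting shared reads between a member and its copies is not known, so levels of members with copies are uncertain. The part of this counting in the low levels was not tested.

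No ribosomal protein gene passed the test between knockdown and control. With limma on log2(FPKM + 0.5), 0 of 80 had an adjusted p under 0.05, the smallest being 0.411, and the share called among all genes tested was 0.0%. At an unadjusted p under 0.05, 3 members were higher in knockdown cells (3.75%), against 6.22% of all genes, and none was lower, against 5.48% of all genes. The log2 difference was above 0 in 74 of 80 members (92.5%), against 51.3% of all genes, with a median of 0.23, against 0.01 for all genes. The standard error of a member's difference ranged from 0.12 to 0.44 with a median of 0.20, so that the typical difference was about the size of its error. In these bulk samples, fewer cells of a type and less RNA per cell cannot be told apart.

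Where knockdown and control libraries did not overlap, the count of members was at the background in the upward direction. In 13 members (16.2%) every knockdown library was above both controls, against 16.2% of all genes. In 1 member, RPL7L1 (1.25%), every knockdown library was below both controls, against 15.8% of all genes. The 13 included RPL11, RPS26, RPL28, RPL14, RPS2, RPLP0, RPL8, RPLP2, RPS10, RPL36 and RPS28.

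**Figure D2:**
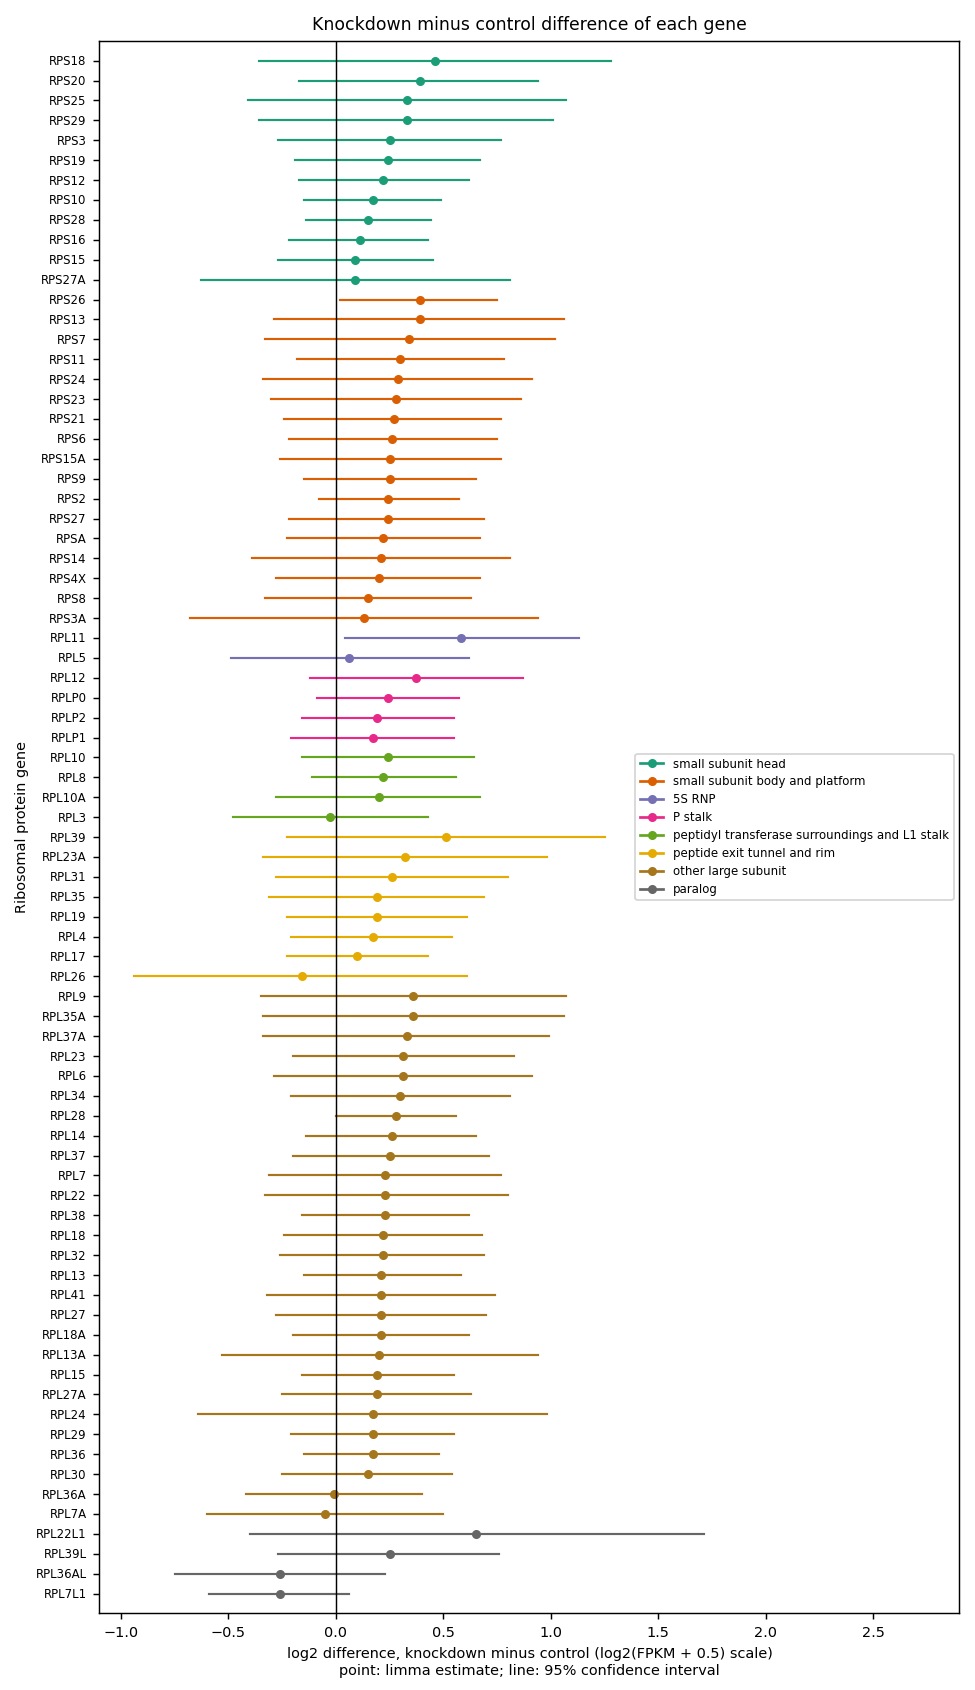
Log2 difference of 78 members, knockdown minus control, as the limma estimate (point) with its 95% confidence interval (line), coloured by role. Of 78 points 72 lie above 0, and the intervals of RPL11, RPS26 and RPL28 alone do not cross it.

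A pair of libraries stood apart in the members. Knockdown replicate 3 was the highest of the 5 libraries in 76 of 80 members, against 30.0% of all genes. Control replicate 1 was the lowest in 71 members (88.8%), against 18.3% of all genes. The median deviation of the members from their 5-library means was -0.11, -0.02 and 0.41 on the log2 scale in knockdown replicates 1 to 3, and -0.26 and -0.01 in control replicates 1 and 2. The ribosomal proteins took up 12.56%, 13.02% and 16.46% of the FPKM sum in knockdown libraries and 11.58% and 13.31% in control libraries. By this share knockdown replicates 1 and 2 lay between the controls and knockdown replicate 3 above both. The median deviations in knockdown replicate 3 and control replicate 1 were 0.27 and -0.17 in elongation factors and other known TOP mRNAs. They were 0.24 and -0.07 in mitochondrial ribosomal proteins and 0.23 and -0.07 in chaperones of ribosomal proteins. So this direction was not particular to the members. In assembly factors they were 0.02 and 0.09, in mTORC1 regulators 0.0 and -0.01, and in rescue genes -0.07 and 0.04. In all genes they were -0.004 and 0.008.

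**Figure D3:**
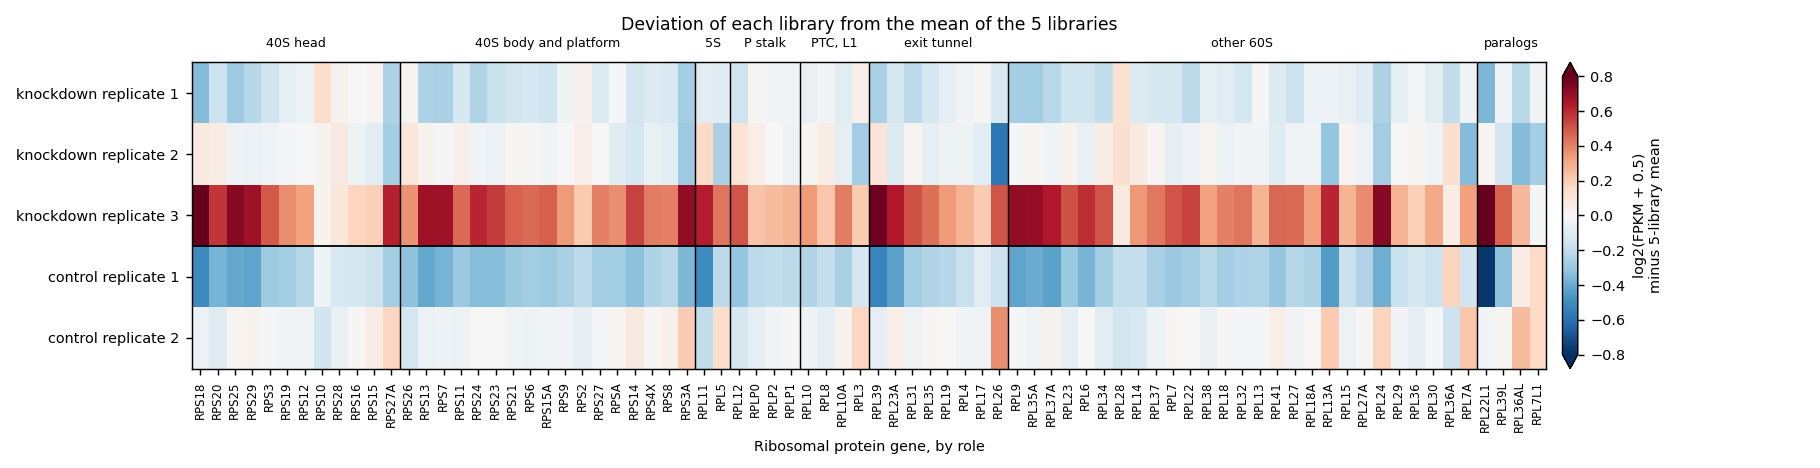
Deviation of each library from the 5-library mean, as log2(FPKM + 0.5), for 78 members in columns with knockdown libraries in the upper rows. Knockdown replicate 3 is above the mean in 77 members and control replicate 1 in 3.

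The controls also differed from each other, nearly always in the same direction. In 78 of 80 members control replicate 2 was higher than control replicate 1, with a median ratio of 1.19. Knockdown replicate 1 was higher than control replicate 1 in 77 members, with a median ratio of 1.11, and lower than control replicate 2 in 65. Without knockdown replicate 3, 67 of 80 members were still above 0 but the median difference was 0.07. Without control replicate 1 the count was 69 and the median 0.11, and without control replicate 2 it was 77 and 0.35. Among the 4 libraries other than knockdown replicate 3, the highest was control replicate 2 in 41 members, knockdown replicate 2 in 35, knockdown replicate 1 in 3 and control replicate 1 in 1.

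In set A, 77 members (96.2%) were higher in knockdown than in control, against 48.6% of all genes, with a median log2 difference of 0.41. In set B, 37 members (46.2%) were higher, against 50.1% of all genes, with a median of -0.01. Knockdown replicate 2 over control replicate 2 had a median ratio of 0.995, and knockdown replicate 3 over control replicate 1 one of 1.59. Set B holds 1 library per group and set A 1 control, so neither difference has a replicate check on both sides, and the difference between the sets was not tested.

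**Figure D4:**
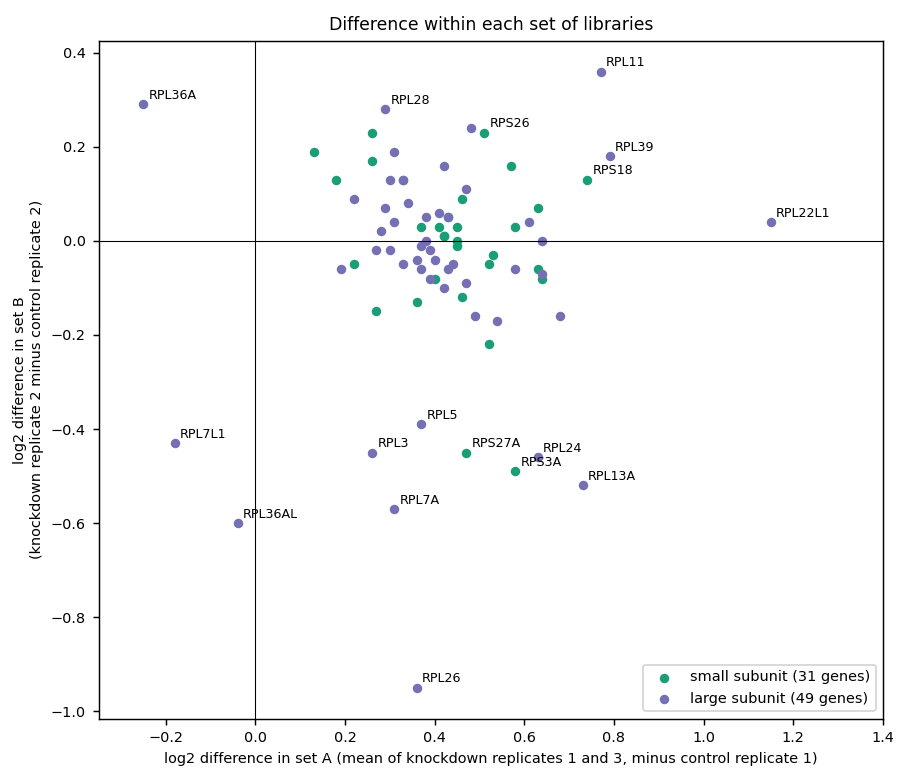
Log2 difference of each member within set A (horizontal) and within set B (vertical), by subunit. Nearly all members lie right of 0, while on the vertical axis 37 lie above 0 and RPL26 is the lowest at -0.95.

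The small subunit proteins were above 0 in 31 of 31 members, with a median of 0.25, and the large subunit symbols in 43 of 49, with a median of 0.21. Within set A the counts were 31 of 31 and 46 of 49, with medians of 0.45 and 0.38. Within set B they were 17 of 31 and 20 of 49, with medians of 0.01 and -0.02. In the head of the small subunit, 14 of 14 members were above 0, with a median of 0.23 (set A 0.39, set B 0.02, where 8 were above 0). RPS28, the member with the smallest range over the 5 libraries (0.21 on the log2 scale), was at 491, 505 and 513 FPKM in knockdown and 444 and 461 FPKM in control libraries. Every knockdown library was above both controls, and the log2 difference was 0.15 ± 0.12 (SE).

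In RPS27A, RPS3, RPS19 and RPS18 of the head the groups overlapped. RPS27A, made as a fusion with ubiquitin, was at 222, 218 and 406 FPKM in knockdown and 217 and 296 FPKM in control libraries. It was high in knockdown replicate 3 alone and otherwise highest in control replicate 2, and its log2 difference was 0.09 ± 0.30 (SE), the lowest of the head, and -0.21 without knockdown replicate 3. RPS3, which lines the mRNA entry channel, and RPS19, whose gene is mutated in some cases of Diamond-Blackfan anaemia, had differences of 0.25 ± 0.22 and 0.24 ± 0.18 (SE), which were 0.06 and 0.11 without knockdown replicate 3. RPS18 had the highest difference of the head at 0.46 ± 0.34 (SE), from the low FPKM values given above, and 0.14 without knockdown replicate 3.

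In the body and platform of the small subunit 17 of 17 members were above 0, with a median of 0.25 (set A 0.46, set B 0.01, where 9 were above 0). RPS26, which contacts mRNA upstream of the start codon at the exit of the mRNA channel (ENSG00000197728.11, chr12:56041351-56044697, plus strand, in GENCODE 29 on GRCh38), was at 193, 203 and 244 FPKM in knockdown and 152 and 173 FPKM in control libraries. All knockdown libraries lay above both controls, with log2 differences of 0.51 within set A and 0.23 within set B. Its difference was 0.39 ± 0.15 (SE), with an adjusted p of 0.413 in limma, and the difference was 0.28 without knockdown replicate 3. RPS2 was at 2112, 2132 and 2381 FPKM in knockdown and 1783 and 1945 FPKM in control libraries, a difference of 0.24 ± 0.14 (SE) with no overlap of groups.

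RPS3A, another platform protein, had the lowest difference of that part of the subunit at 0.13 ± 0.34 (SE), and -0.20 without knockdown replicate 3. It was at 379, 374 and 748 FPKM in knockdown and 356 and 526 FPKM in control libraries, so that the level in knockdown replicate 3 was the single high value. RPS6, the substrate of S6 kinases, differed by 0.26 ± 0.20 and RPSA, also known as the laminin receptor precursor, by 0.22 ± 0.19 (SE). Without knockdown replicate 3 these were 0.09 and 0.07.

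RPL5 and RPL11 bind 5S RNA as a particle that is built into the large subunit and that is known to bind MDM2 when assembly fails. RPL11 (ENSG00000142676.14, chr1:23691742-23696835, plus strand) had the smallest p of all members. It was at 570, 678 and 937 FPKM in knockdown and 427 and 529 FPKM in control libraries, with all knockdown libraries above both controls. Knockdown minus control came to 0.58 ± 0.23 (SE) on the log2 scale, with a 95% interval of 0.04 to 1.13 and a limma adjusted p of 0.411. Without knockdown replicate 3 it was 0.39. Within set A it was 0.77, and within set B 0.36, where RPL11 was the only member at 0.3 or above. RPL5 was at 693, 624 and 1007 FPKM in knockdown and 644 and 820 FPKM in control libraries, with a difference of 0.06 ± 0.23 (SE), or -0.14 without knockdown replicate 3, and its groups overlapped. Within set B the difference of RPL5 was -0.39, of opposite sign to that of RPL11.

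The stalk that recruits translation factors is made of RPLP0, RPLP1 and RPLP2 with RPL12 at its base. All 4 were above 0, with a median difference of 0.22 (set A 0.33, set B 0.08), and all averaged over 1000 FPKM. RPLP0, the scaffold of the stalk, was at 1475, 1507 and 1711 FPKM in knockdown and 1264 and 1377 FPKM in control libraries, a difference of 0.24 ± 0.14 (SE) with no overlap. RPLP2 also had no overlap, at 0.19 ± 0.15 (SE), while RPLP1 differed by 0.17 ± 0.16 and RPL12 by 0.37 ± 0.21 (SE). Without knockdown replicate 3, RPLP2 was at 0.11, RPLP1 at 0.07 and RPL12 at 0.20.

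Around the peptidyl transferase centre and the L1 stalk, 3 of 4 members were above 0, with a median of 0.21 (set A 0.34, set B -0.03). RPL10, which is loaded late in maturation of the large subunit, differed by 0.24 ± 0.17 (SE), or 0.12 without knockdown replicate 3, and RPL8 by 0.22 ± 0.14 (SE). RPL3, a protein that reaches the catalytic centre, was at 1184, 949 and 1338 FPKM in knockdown and 1048 and 1300 FPKM in control libraries. Its lowest value was in knockdown replicate 2, and its difference was -0.03 ± 0.19 (SE), or -0.14 without knockdown replicate 3.

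At the peptide exit tunnel and its rim 7 of 8 members were above 0, with a median of 0.19 (set A 0.38, set B -0.05) and differences from -0.16 to 0.51. RPL39, a short protein that lines the tunnel, was at 766, 981 and 1581 FPKM in knockdown and 635 and 866 FPKM in control libraries. Its difference was 0.51 ± 0.31 (SE), or 0.22 without knockdown replicate 3, and knockdown replicate 1 lay below control replicate 2. RPL26 (ENSG00000161970.14, chr17:8377516-8383250, minus strand), at the rim of the tunnel, was at 643, 467 and 989 FPKM in knockdown and 622 and 899 FPKM in control libraries. Its highest and its lowest value were both knockdown libraries, and its difference was -0.16 ± 0.32 (SE). Within set A it was 0.36 and within set B -0.95. Without knockdown replicate 3 it was -0.45. RPL35 differed by 0.19 ± 0.21 (SE), and by 0.01 without that library.

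Of the 27 other large subunit proteins 25 were above 0, with a median of 0.22 (set A 0.40, set B -0.01, where 11 were above 0). RPL28 (ENSG00000108107.14, chr19:55385345-55403250, plus strand), a protein found in eukaryotic but not in budding yeast ribosomes, was at 107, 108 and 104 FPKM in knockdown and 85.7 and 88.4 FPKM in control libraries. It did not follow the pattern of the libraries: knockdown replicate 3 was the lowest of its group, the groups did not overlap, and both sets gave nearly the same difference, 0.29 for A and 0.28 for B. The log2 difference was 0.28 ± 0.12 (SE), with a limma adjusted p of 0.426. GENCODE names no pseudogene after RPL28.

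RPL7A was at 2042, 1633 and 2624 FPKM in knockdown and 1867 and 2431 FPKM in control libraries. Its groups overlapped, and the difference was -0.05 ± 0.23 (SE), the lowest among these 27 proteins, and -0.22 without knockdown replicate 3. RPL9 had the highest difference of the 27 with all libraries, 0.36 ± 0.30 (SE), but was at 0.07 without knockdown replicate 3. RPL22, an RNA-binding protein of the surface, was at 0.23 ± 0.24 (SE), and at 0.01 without that library. RPL36A was at -0.01 ± 0.17 (SE).

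In set B, 10 members were at -0.3 or below on the log2 scale, namely RPL26, RPL36AL, RPL7A, RPL13A, RPS3A, RPL24, RPS27A, RPL3, RPL7L1 and RPL5, chosen here after their values were seen. Each of these differences compares 1 library with 1. The share of all genes at -0.3 or below in set B was not counted, so the 10 have no background beside them. The lowest was RPL26 at -0.95 and the next RPL36AL at -0.60. The lowest of the 5 libraries was knockdown replicate 2 in 6 of the 10 and control replicate 1 in 4, namely RPL13A, RPL24, RPS3A and RPS27A, in which control replicate 2 lay above knockdown replicates 1 and 2. Within set A, 8 of the 10 were above 0, and the other 2 were the paralogs RPL36AL and RPL7L1. All 10 code for large subunit proteins or their paralogs except RPS3A and RPS27A, and of all 80 members 49 carry large subunit symbols.

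Of the 4 paralogs 2 were above and 2 below 0. RPL22L1 (ENSG00000163584.17, chr3:170864875-170870483, minus strand), which can take the place of RPL22, was at 23.1, 30.3 and 66.1 FPKM in knockdown and 17.4 and 29.5 FPKM in control libraries. It had the widest range of all members over the libraries, 1.90 on the log2 scale, and its difference of 0.65 ± 0.44 (SE) had a limma adjusted p of 0.589. That difference was 0.22 without knockdown replicate 3, 0.28 without control replicate 1 and 1.03 without control replicate 2, with 1.15 for set A and 0.04 for set B. RPL7L1 (ENSG00000146223.14, chr6:42879618-42889925, plus strand), the paralog of RPL7 that is known as an assembly factor, was at 34.4, 29.04 and 34.8 FPKM in knockdown and 39.1 and 39.4 FPKM in control libraries. It was the single member with all knockdown libraries below both controls, at -0.26 ± 0.14 (SE) and a limma adjusted p of 0.493. With libraries weighted by limma's array weights the difference was -0.39 with an adjusted p of 0.0490, a fit in which 11.7% of all genes were called. Its adjusted p lay between 0.341 and 0.987 in the other fits. RPL36AL was at -0.26 ± 0.20 and RPL39L at 0.25 ± 0.22 (SE), and without knockdown replicate 3 they were at -0.44 and 0.06.

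The balance between a paralog and its partner was tested in 6 pairs with an exact two-sided permutation test, which cannot go below 0.1 with 3 against 2 libraries. The log2 ratio of RPL7L1 to RPL7 was -5.02, -5.33 and -5.64 in knockdown and -4.68 and -4.98 in control libraries, a difference of -0.50 (exact p = 0.2), with every knockdown library below both controls. For RPL26L1 to RPL26 it was -4.07, -3.69 and -4.40 in knockdown and -4.51 and -4.78 in control libraries, a difference of 0.59 (exact p = 0.2), with every knockdown library above both controls. Without knockdown replicate 3 the RPL7L1 to RPL7 difference was -0.34 and the RPL26L1 to RPL26 difference 0.77. The RPL22L1 to RPL22 ratio differed by 0.42 and the RPL39L to RPL39 ratio by -0.27 (exact p = 0.4 for each). The first was 0.21 without knockdown replicate 3, 0.19 without control replicate 1 and 0.66 without control replicate 2, and the second was -0.16 without knockdown replicate 3. RPL36AL to RPL36A differed by -0.25 and RPS27L to RPS27 by -0.11 (exact p = 0.5 for each), or by -0.40 and -0.20 without knockdown replicate 3. The exact p adjusted over the 6 pairs was 0.5 in each.

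Features that the choice of members did not use were set beside the differences as a description. Members with a TOP start had a median log2 difference of 0.23 (43 of 46 above 0) and members without one 0.20 (15 of 18 above 0), and within set B these medians were 0.02 and -0.05. The 27 members with a small nucleolar RNA annotated within the gene on the same strand had a median of 0.22. The other 53 had one of 0.23. Proteins shared by all domains of life had a median of 0.24 (33 members) and those found in eukaryotes and archaea or in eukaryotes only one of 0.22 (41 members).

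GC content went with the deviation of single libraries. Over the 80 members, Spearman's rho between transcript GC content and deviation was 0.64, 0.08 and -0.50 in knockdown replicates 1 to 3 and 0.33 and -0.09 in control replicates 1 and 2. Over 11768 tested genes it was 0.60, 0.01 and -0.55 in knockdown and 0.19 and 0.12 in control libraries. These are descriptions across genes, which share the library. In knockdown replicate 3 the median deviation was 0.51 in the 20 members of lowest GC content (40.4% to 47.6%) and 0.27 in the 20 of highest (54.2% to 62.8%). After a loess correction of each library for GC content and length, the median deviation of the members was -0.09, -0.04 and 0.32 in knockdown and -0.22 and 0.02 in control libraries, and 72 of 80 differences were above 0, with a median of 0.16.

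**Figure D5:**
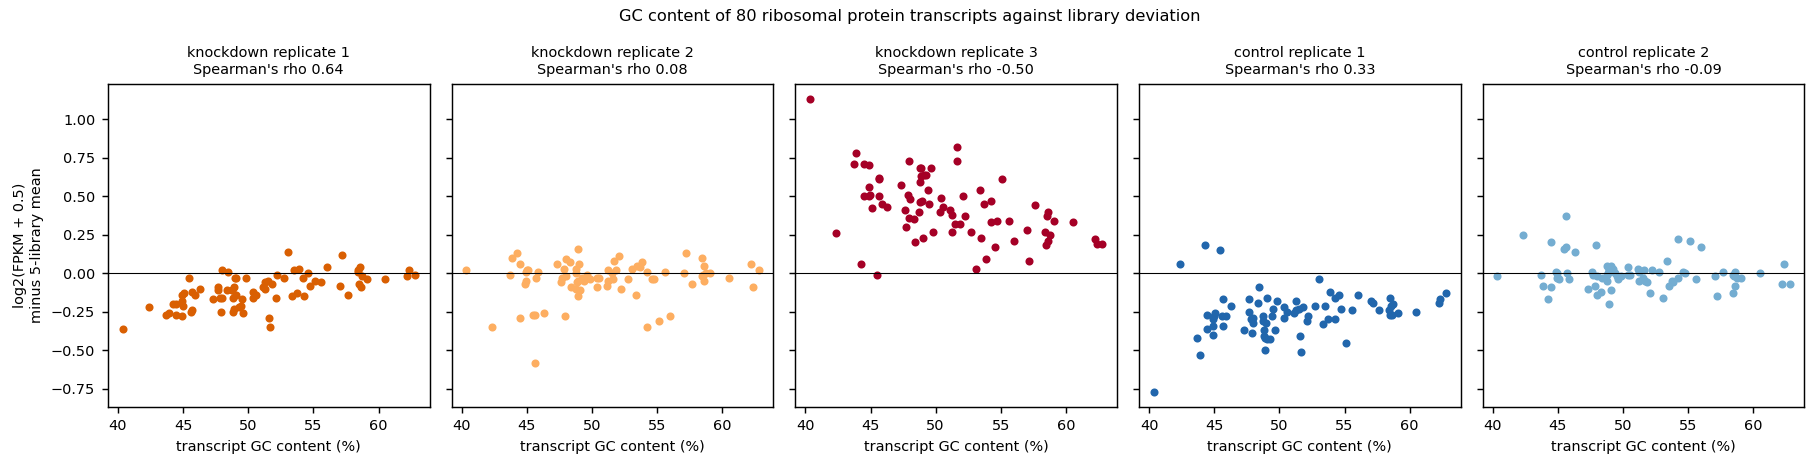
Deviation of each library from the 5-library mean against transcript GC content (percent) for the 80 members, with 1 panel per library and knockdown libraries to the left. The relation has opposite signs in knockdown replicates 1 and 3, with rho 0.64 and -0.50, knockdown replicate 2 showing almost none at 0.08.

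Genes that work with the ribosome were read out in the same fit, and none of the 7 lists had a member with an adjusted p under 0.05 in limma. For the counts at an unadjusted p under 0.05 in all these lists, the share over all genes was 6.22% higher and 5.48% lower in knockdown. The genes named were picked as the smallest p of their list in each direction. The mitochondrial ribosomal proteins, which belong to the separate ribosome of that organelle, were above 0 in 47 of 76, with a median of 0.04 (set A 0.16, set B -0.14), and 1 had an unadjusted p under 0.05. Elongation factors and other known TOP mRNAs were above 0 in 21 of 23 tested, with a median of 0.22 (set A 0.29, set B 0.08), and 2 had an unadjusted p under 0.05, both higher. The smallest p among them was that of EIF3F, a subunit of initiation factor eIF3, at 208, 228 and 197 FPKM in knockdown and 132 and 126 FPKM in control libraries, a difference of 0.70 (set A 0.61, set B 0.85) with a limma adjusted p of 0.372. IPO7, an importin, had the smallest p of those below 0, at -0.10 (set A -0.25, set B 0.08).

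Assembly factors and RNA polymerase I subunits were above 0 in 37 of 88, with a median of -0.03 (set A -0.10, set B 0.01), and 1 in each direction had an unadjusted p under 0.05. These were NOLC1, a nucleolar phosphoprotein, at 0.55 (set A 0.84, set B 0.15), and RRP1B, a nucleolar assembly factor, at -0.64 (set A -0.72, set B -0.58). Of the genes listed as chaperones of ribosomal proteins 7 of 11 were above 0, with a median of 0.07 (set A 0.16, set B -0.08). An unadjusted p under 0.05 was found for 1, PDCD2L, at -0.45, and BTF3, a subunit of the nascent polypeptide-associated complex, was at 0.21 (set A 0.35, set B 0.03). Of 30 mTORC1 and TOP mRNA regulators 12 were above 0, with a median of -0.03, and an unadjusted p under 0.05 was found for 1 in each direction. LAMTOR4, of the lysosomal anchor of mTORC1, was at 0.31 and MTOR, its kinase, at -0.53. Ribosome rescue and quality control genes were above 0 in 8 of 21, with a median of -0.03 and again 1 in each direction at an unadjusted p under 0.05. HABP4, a ribosome-binding protein of resting ribosomes, was at 7.37, 8.30 and 10.3 FPKM in knockdown and 2.74 and 4.36 FPKM in control libraries, a difference of 1.19 with a limma adjusted p of 0.372. GIGYF2, a repressor of translation at stalled ribosomes, was at -0.40.

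RACK1 and FAU gave smaller differences than the median member. RACK1, a scaffold on the head of the small subunit, was at 1076, 1118 and 1180 FPKM in knockdown and 1011 and 1041 FPKM in control libraries, a log2 difference of 0.13 ± 0.13 (SE). Its groups did not overlap. FAU, which yields a small subunit protein, differed by 0.12 ± 0.13 (SE).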

How the data were processed

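The authors deposited 1 table of FPKM values by gene symbol, and each of its 5 value columns was matched to a sample by its label. Per the submitters' processing notes, HISAT2 2.0.1 and StringTie 2.0.6 were used, and these notes list mm9 beside GRCh38 without saying what for. For the annotation and the use of strand, the choice is not given in the sources used here. FPKM carries no read total, so the absolute depth is unknown and no count test was run.

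The members and lists were chosen with earlier results of these data known. Values were analysed as log2(FPKM + 0.5), a scale that understates the change of low genes, in 12196 genes whose mean reached 1 FPKM. limma 3.58.1 in R 4.3.3 (lmFit, eBayes with an intensity trend) compared 3 knockdown with 2 control libraries without covariates, with Benjamini-Hochberg adjustment over all genes tested and a threshold of 0.05. The step was tested on simulated data with independent noise and changes larger than any member's difference, so recovery of differences of the members' size was not tested. Genes were named by rule: in each role group the highest and lowest difference and the highest level, the 5 of smallest p in each direction, a fixed set, and the smallest p in each direction of each other list. Members without overlap, the lowest levels and those low in set B were named after their values were seen. GENCODE 29 gave positions, GC content, transcript length and pseudogene names, and 96.5% of tested genes were matched by symbol. Ratios of low values (under 0.3 FPKM) were rounded to 5 decimals to find the sets. Alternatives changed the pseudocount, filter, scaling, variance model, library weights, a block by replicate number, a set term, a GC and length correction (loess span 0.3) and the libraries used. A few genes are not named here or in the plots, though counts and medians include them.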

Additional observations from a re-analysis of the deposited data

How the results depend on the processing

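The count of members above 0 stayed between 67 and 77 of 80, and their median log2 difference between 0.07 and 0.35, over all alternatives that kept libraries of both sets and every member; with a mean of at least 5 FPKM 72 of 77 were above 0. Within set B the count was 37. With equal FPKM sums the median of all genes was -0.043, against 0.007 as reported, and 43.1% of all genes were then above 0, with 74 members and a member median of 0.17. Quantile scaling gave 69 members and 0.13. Array weights (0.53, 3.98 and 0.257 for knockdown, 1.36 for each control) gave 68 members and 0.14, with 1 member past the adjusted threshold, against 11.7% of all genes, and 8 with an unadjusted p under 0.05, against 35.1% of all genes. A set term left 0 with an unadjusted p under 0.05, against 6.79% of all genes. Leaving out each library in turn gave 0 to 4 such members, against 4.62% to 17.2% of all genes, and 0 past the adjusted threshold, and where a control was left out the lone control was assumed to vary like the knockdown libraries.

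The difference changed sign in members near 0. With array weights it was -0.17 for RPL5 and RPS27A, -0.15 for RPS3A and 0.08 for RPL36A. RPL5 was at -0.06 with quantile scaling and RPL36A at 0.01 with median centring. After the GC and length correction RPL5 was at -0.03 and RPS27A at -0.01. With libraries left out, the range was -0.14 to 0.23 for RPL5, -0.21 to 0.31 for RPS27A, -0.20 to 0.41 for RPS3A, -0.45 to 0.10 for RPL26, -0.18 to 0.13 for RPL3, -0.24 to 0.14 for RPL7A and -0.18 to 0.16 for RPL36A. The RPL36AL to RPL36A ratio differed by -0.51 to 0.01 with libraries left out, 0.20 within set A and -0.89 within set B, and the RPL26L1 to RPL26 ratio by 0.28 in set A and 1.09 in set B. AHNAK was at -0.83 in set A, -1.79 in set B and -1.55 with array weights. The causes were not tested.

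Replicate numbers 1 and 2 occur in both groups. Same-numbered libraries also fell in the same set, and no label says that they were paired. Their deviations from the group means correlated at -0.064 and -0.578. With so few libraries per group these values cannot decide whether they were paired. In a replicate block knockdown replicate 3 has no partner, so the differences are by construction those without that library. They gave 67 of 80 members above 0, a median of 0.07, and RPL5 at -0.14, RPS27A at -0.21 and RPS3A at -0.20. No read totals are known, so counting error at the lowest members is unknown.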
